A study of Mus musculus with 8 samples.

Results

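The neutrophil granule and calprotectin genes are 10 genes whose products neutrophils carry: S100a8, S100a9, Lcn2, Ltf, Camp, Ngp, Mmp8, Mpo, Csf3r and Fpr1. Every non-control probe of the array whose gene name is one of these was taken, which gave 11 probes of 41174, 2 of them for Ltf and 1 for each of the other 9 genes. They were measured on 8 two-color oligonucleotide arrays in the ipsilateral hemisphere (without the olfactory bulb and cerebellum) of male C57BL/6J mice, aged 8 to 12 weeks, which had no genetic alteration in any group. The mice had a sham operation or permanent middle cerebral artery occlusion (PMCAO, by an intraluminal filament, the model of permanent focal ischemia used here), received an intracerebroventricular injection of 1 pmol PACAP38 (the longer form of pituitary adenylate cyclase-activating polypeptide) in 1 μL or of 1 μL saline, and were killed at 6 h or 24 h.

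This gave 8 pools, 1 each of sham plus saline, sham plus PACAP38, PMCAO plus saline and PMCAO plus PACAP38 at 6 h and again at 24 h. Each pool held the RNA of 3 mice, and PMCAO mice were chosen for a neurological grade of 1 or 2. The saline pool and the PACAP38 pool of a surgery and time were hybridized together on 2 arrays with the dyes exchanged. By the methods, both labelings used 1 RNA preparation, so these 2 arrays count as 1 replicate, and a ratio within 1 surgery and time has no replicate and no test. The 2 values given for a ratio show the error of labeling and hybridization only. The scanner named in the file headers differed between the 6 h arrays and the 24 h arrays, as did the version of the scanner software. The effect of time cannot be told apart from that of these differences.

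Neutrophils store antimicrobial proteins in granules that form one after another while the cell matures in the bone marrow. The transcripts of early azurophil granule proteins such as myeloperoxidase are made in progenitors, those of specific and gelatinase granule proteins later, and S100a8 and S100a9 stay abundant in the mature cell. After occlusion of a cerebral artery, neutrophils adhere to the vessels of the ischemic hemisphere and enter it. Lcn2 is also known to be made by reactive astrocytes. In a hemisphere, fewer cells of a type and less RNA per cell cannot be told apart.

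The promoters of 4 genes are shown, those of the 3 probes with the lowest measured ratio of PACAP38 over saline in PMCAO at 24 h (Mmp8, S100a9 and S100a8) and that of Mpo, whose ratio there was closest to 1. Each is the 250 bases before the RefSeq start of the gene in build GRCm38.p6, written 5′ to 3′ on the strand of the gene. They lie at chr3:90668821-90669070 (S100a8, plus strand), chr3:90695722-90695971 (S100a9, minus strand), chr9:7558179-7558428 (Mmp8, plus strand) and chr11:87793534-87793783 (Mpo, plus strand). Capitals mark matches, on either strand, to a C/EBP-like motif (TTGCNNAA) or a PU.1-like motif (GAGGAAGT), named for factors that control myeloid genes.
S100a8: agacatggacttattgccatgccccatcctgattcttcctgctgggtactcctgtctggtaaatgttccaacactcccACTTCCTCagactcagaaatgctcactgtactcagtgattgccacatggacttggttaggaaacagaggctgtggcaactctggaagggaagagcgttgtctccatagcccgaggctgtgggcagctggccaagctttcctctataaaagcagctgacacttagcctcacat
S100a9: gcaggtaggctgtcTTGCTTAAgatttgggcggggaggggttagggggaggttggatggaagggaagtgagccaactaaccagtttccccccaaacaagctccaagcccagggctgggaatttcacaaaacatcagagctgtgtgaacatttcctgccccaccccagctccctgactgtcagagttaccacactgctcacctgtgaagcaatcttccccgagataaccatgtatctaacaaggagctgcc
Mmp8: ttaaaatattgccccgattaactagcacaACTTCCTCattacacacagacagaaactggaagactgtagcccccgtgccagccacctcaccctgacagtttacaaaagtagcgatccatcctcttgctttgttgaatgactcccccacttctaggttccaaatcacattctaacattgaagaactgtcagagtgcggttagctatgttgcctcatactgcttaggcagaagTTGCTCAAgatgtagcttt
Mpo: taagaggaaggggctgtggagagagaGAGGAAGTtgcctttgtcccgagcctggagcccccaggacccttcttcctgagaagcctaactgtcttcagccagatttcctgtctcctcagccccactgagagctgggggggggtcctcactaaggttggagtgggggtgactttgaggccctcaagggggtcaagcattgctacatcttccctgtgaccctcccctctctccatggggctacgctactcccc
The C/EBP-like letters were in 5 of the 10 promoters (S100a9, Mmp8, Lcn2, Ngp and Ltf), against 9.56% of the 32851 promoter windows of the same length in the table. The PU.1-like letters were in 3 of the 10 (S100a8, Mmp8 and Mpo), against 2.44% of all windows. No overlapping matches of the 2 motifs were found in the promoters shown. These matches are letters in a window and were not tested as binding sites. S100a8 and S100a9 are neighbors on chromosome 3, and Mmp8, Camp, Ngp and Ltf all lie on chromosome 9.

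The signals of the 8 pools are given first, as the signal processed by the scanner software (arbitrary units, Cy3 then Cy5). S100a8, a calcium-binding protein that forms calprotectin with S100a9, gave 54.3 and 69.4 in sham plus saline at 24 h, 91.2 and 126 in sham plus PACAP38, 4123 and 4604 in PMCAO plus saline, and 552 and 606 in PMCAO plus PACAP38. At 6 h the same probe gave 166 and 249, 276 and 149, 744 and 918, and 1571 and 1258 in the same order of pools. Both PMCAO pools were above both sham pools at each time in both dyes, and the PACAP38 pool of PMCAO was above its saline pool at 6 h and below it at 24 h. S100a9, the second subunit of calprotectin and the brightest probe of the set, gave 661 and 654, 981 and 1021, 46413 and 40251, and 4916 and 5322 in the 4 pools of 24 h. At 6 h it gave 1263 and 1504, 2354 and 1207, 6660 and 5943, and 10762 and 8108. The order of the pools was that of S100a8 at both times, except that the sham pools of 6 h overlapped between the dyes for both genes.

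**Figure D1:**
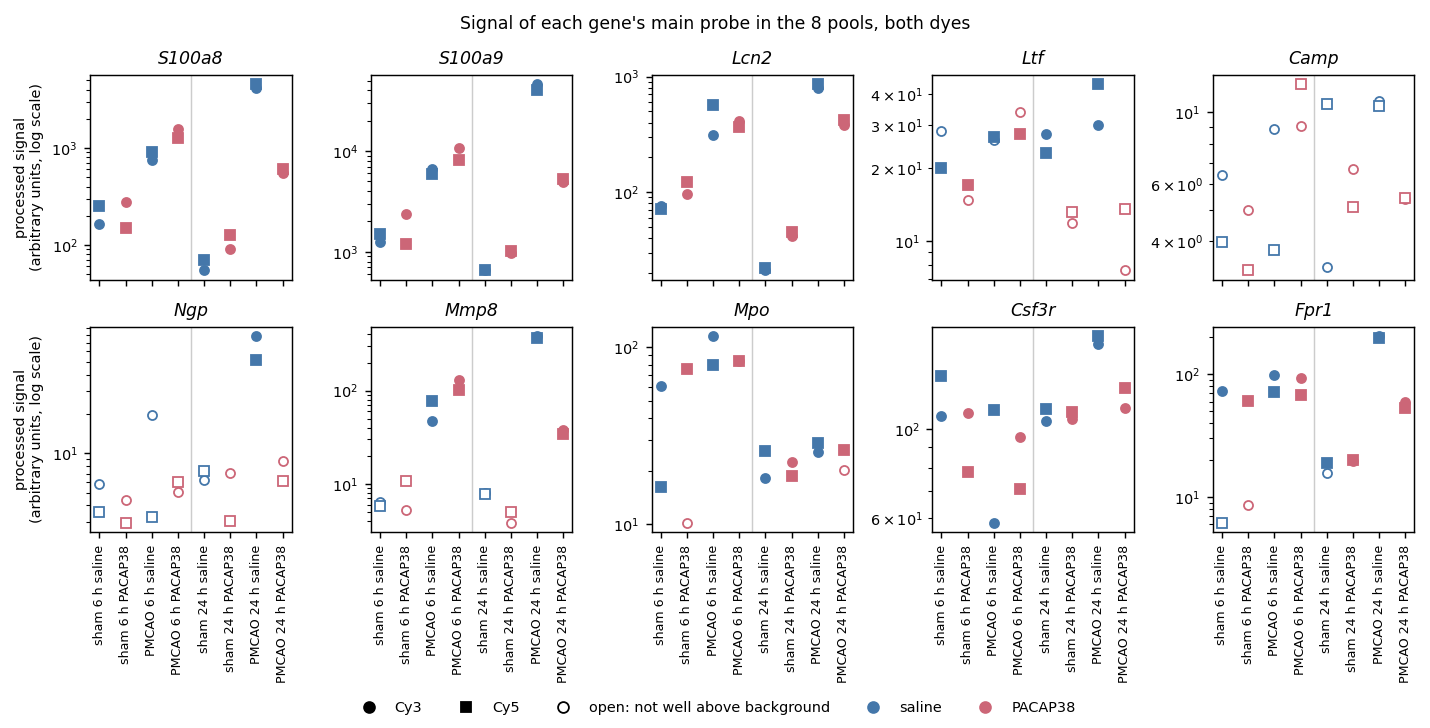
Processed signal (arbitrary units, log scale, with a scale of its own for each gene) of the main probe of the 10 genes in the 8 pools. Circles are Cy3, squares are Cy5, blue is saline, red is PACAP38 and open symbols are not well above background. For S100a8 the PMCAO plus saline pool of 24 h, at 4123 and 4604, is the highest of the 8 pools, while the 24 h signals of Mpo stay between 18.3 and 28.8.

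Lcn2, lipocalin-2, which binds the siderophores that bacteria use to take up iron, gave 21.1 and 21.9, 42.2 and 45.3, 788 and 864, and 382 and 420 at 24 h, and 76.4 and 71.0, 96.8 and 122, 310 and 568, and 415 and 362 at 6 h. The 4 pools of 24 h did not overlap, whereas the 2 PMCAO pools of 6 h did. Mmp8, neutrophil collagenase, was not well above background in any sham pool. It gave 384 and 363 in PMCAO plus saline and 37.6 and 34.1 in PMCAO plus PACAP38 at 24 h, and 47.6 and 76.7 and then 130 and 101 in the same 2 pools at 6 h. Mmp8 was thus higher in the PACAP38 pool at 6 h and lower in it at 24 h, in both dyes.

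Fpr1, a receptor for formylated peptides of bacteria and mitochondria, gave 205 and 198 in PMCAO plus saline and 59.6 and 52.7 in PMCAO plus PACAP38 at 24 h, against 15.8 to 20.2 in the 2 sham pools. The PMCAO pools of 6 h overlapped (98.0 and 71.4 with saline, 92.7 and 68.2 with PACAP38). In the sham pools of 6 h the 2 arrays differed: 1 array gave 73.0 for saline and 60.6 for PACAP38, and the other 6.18 and 8.59, neither well above background. The second array is the one with the highest share of outlier spots of all 8 (10.7%, against 0.323% to 3.09% on the others). Mpo, myeloperoxidase, differed between the same 2 arrays in a like manner, with 60.3 for saline and 75.5 for PACAP38 on 1 array and 16.3 and 10.2 on the other.

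Ngp, neutrophilic granule protein, was well above background only in PMCAO plus saline at 24 h, where it gave 78.5 and 51.8, and its signals in the other 7 pools ranged from 2.96 to 19.5. The probe of Camp, the cathelicidin antimicrobial peptide, was not well above background in any channel (3.26 to 12.2). Ltf, lactoferrin, which binds iron, was dim on both probes, and its main (brighter) probe reached 30.0 and 44.1 in PMCAO plus saline at 24 h. Csf3r, the receptor of granulocyte colony-stimulating factor, gave 162 and 170 in that pool and 58.4 to 135 in the other 7. No spot of these probes was saturated or marked as an outlier.

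The first comparison asks how PMCAO differed from sham under each injection. It was made on the log2 signal minus the 75th percentile of its channel, PMCAO minus sham within the same dye, and averaged over the 2 dyes, and a probe above 1.5-fold was counted as higher. In saline at 24 h, S100a8 was 74.7-fold (log2 6.29 in Cy3 and 6.16 in Cy5), S100a9 69.2-fold, Lcn2 40.4-fold and Fpr1 12.2-fold that of sham. Mmp8 was at least 22.7-fold and Ngp at least 4.43-fold higher, limits that hold because sham was not well above background. Of the 11 probes 10 were higher, against 9.56% of all probes, and Mpo, at 1.30-fold, was not. Camp is among the 10, although it was not well above background in either pool. The median log2 ratio of the 11 probes was 3.31, against 0.02 over all probes. After normexp background correction, loess and Aquantile the log2 ratios were 4.53 for S100a8, 5.89 for S100a9, 2.83 for Lcn2, 2.24 for Mmp8, 1.42 for Fpr1 and 0.84 for Ngp. The other 5 probes (Csf3r, Mpo, Camp and both of Ltf) were not past the threshold. The size of these ratios thus depends on the processing, in which background correction and normalization were changed together.

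In PACAP38 at 24 h the ratios of PMCAO over sham were smaller for these genes. S100a8 was 5.62-fold (log2 2.69 and 2.29), S100a9 5.32-fold, Lcn2 9.54-fold, Fpr1 2.93-fold and Mmp8 at least 1.82-fold. There 6 of the 11 probes were higher, against 6.39% of all probes, with a median of 0.72. One of the 6 was Ngp, which was not well above background in either pool. After normexp, loess and Aquantile S100a8 (log2 1.36), S100a9 (2.26) and Lcn2 (1.57) were still past the threshold, whereas Fpr1 (0.23), Mmp8 (0.16) and Ngp (0.02) were not. Csf3r was 1.61-fold with saline (log2 0.67 and 0.71) and 1.15-fold with PACAP38 (0.19 and 0.22). Both the PMCAO pools and the sham pools enter these ratios, and the sham pools of 24 h were not level: Lcn2 gave 21.1 and 21.9 with saline and 42.2 and 45.3 with PACAP38.

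At 6 h 8 of the 11 probes were higher in saline, against 26.5% of all probes, and 9 in PACAP38, against 17.8%. In both dyes separately 5 were higher in saline, against 10.6% of all probes, and 4 in PACAP38, against 5.33%. The 8 include Ngp and the 9 include Camp, neither well above background in either pool of its comparison. The median log2 ratio over all probes at 6 h was 0.10 in saline and -0.03 in PACAP38, and the 2 dyes often differed. S100a8 was 3.93-fold in saline (log2 2.21 and 1.74) and 5.72-fold in PACAP38 (1.87 and 3.16). S100a9 was 4.41-fold and 4.57-fold, and Lcn2 5.50-fold and 2.94-fold. For Mmp8 the lower limit was at least 2.76-fold in saline and at least 7.34-fold in PACAP38. Mpo was 2.96-fold and 2.49-fold, and Fpr1 3.80-fold and 2.87-fold. For both genes the larger value came from the dye read on the sham array with many outlier spots. Fpr1 in saline had log2 0.47 in Cy3 and 3.39 in Cy5. Mpo in saline had 0.98 and 2.14, past the threshold in both dyes. Which sham array was nearer the true value was not tested. After normexp, loess and Aquantile neither gene was past the threshold at 6 h (Mpo 0.31 and 0.18, Fpr1 0.19 and 0.26 on the log2 scale), while S100a8, S100a9, Lcn2 and Mmp8 were, with both injections. Csf3r was 0.645-fold in saline (log2 -0.84 and -0.43) and 0.733-fold in PACAP38 (-0.84 and -0.05).

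**Figure D2:**
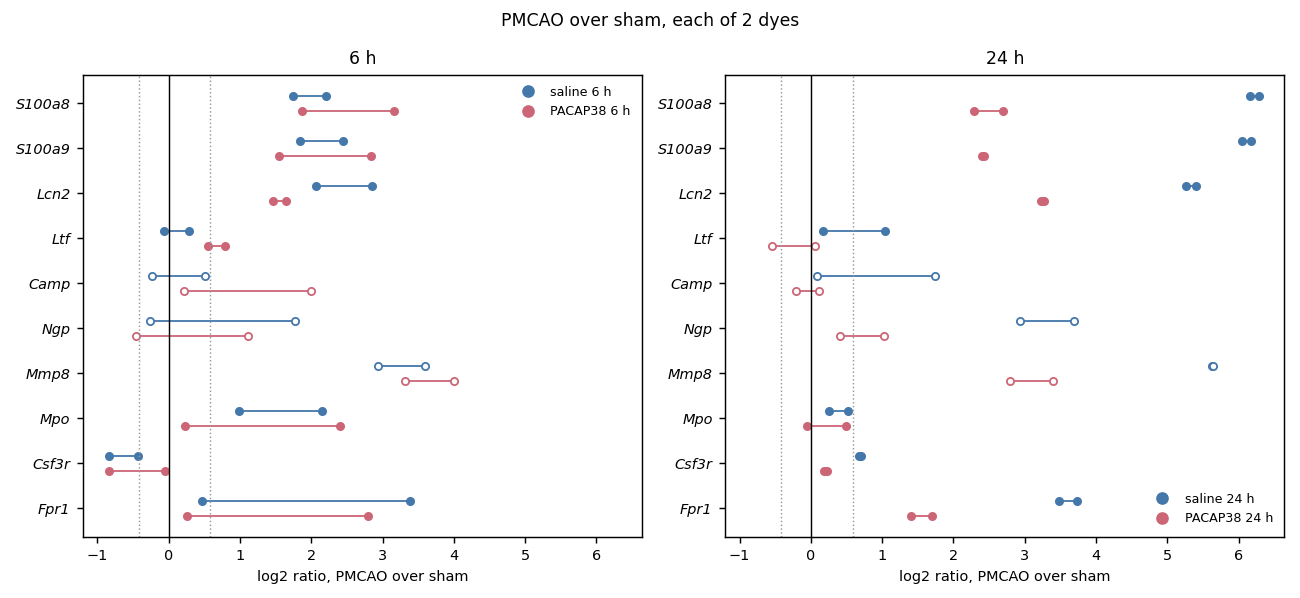
Log2 ratio of PMCAO over sham for the main probe of each gene at 6 h (left) and 24 h (right), with saline in blue and PACAP38 in red. The 2 points joined by a line are the 2 dyes, open points mark a probe not well above background in 1 or both groups, and dotted lines mark 1.5-fold and 0.75-fold. At 24 h S100a8 and S100a9 lie above 6 with saline and between 2.29 and 2.69 with PACAP38.

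Surgery was compared over separate pools, 4 of PMCAO against 4 of sham. Over these 8 pools limma, with time and drug as covariates and the array pair as a random block, gave 0 of 11 member probes past a Benjamini-Hochberg adjusted p of 0.05, while 10 of 36121 probes (0.0277%) were called higher in PMCAO. At an unadjusted p under 0.05 there were 6 member probes and 5972 probes in all. Lcn2 was nearest, with a log2 difference of 3.15 ± 0.58 (SE) and an adjusted p of 0.0951 in limma. Mmp8 had 3.91 ± 0.94 (adjusted p = 0.150 in limma), S100a8 3.30 ± 0.87 (0.163), Fpr1 2.15 ± 0.56 (0.163) and S100a9 3.21 ± 0.88 (0.177).

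The calls of member probes changed when either PMCAO pool of 24 h was left out, and the cause was not tested. Without the PMCAO plus PACAP38 pool of 24 h, 5 member probes were called higher by the same limma fit (Mmp8, S100a8, Fpr1, S100a9 and Lcn2, adjusted p from 0.00148 to 0.00887), against 1.44% of all probes. Without the PMCAO plus saline pool of 24 h, 4 were called (Mmp8, S100a8, S100a9 and Lcn2, adjusted p from 0.000102 to 0.0083), against 0.338% of all probes. In both cases the estimates stayed positive, at 2.38 ± 0.24 for S100a8 without the saline pool and 3.94 ± 0.56 without the PACAP38 pool. Camp, Ngp, Csf3r, Mpo and both probes of Ltf were called in none of the 3 fits. On simulated pools this fit called more unchanged probes than its adjusted p allows, and its calls are to be read with that limit. The simulation set a lower correlation within an array pair than the fit estimated (0.497), so the rate in the data is not known.

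The second comparison asks how PACAP38 differed from saline within 1 surgery and time, on the same arrays. It was taken from the deposited log ratio, turned where PACAP38 was in Cy3, and a probe was counted as higher above 1.5-fold and lower below 0.75-fold, the thresholds of the study. In PMCAO at 24 h the genes were lower in the PACAP38 pool almost throughout. The ratio was 0.0958-fold for Mmp8 (log2 -3.49 with PACAP38 in Cy5 and -3.27 with PACAP38 in Cy3), 0.118-fold for S100a9 (-3.12 and -3.03) and 0.133-fold for S100a8 (-2.77 and -3.06). Ngp was at least 3.99-fold lower.

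Fpr1 was 0.278-fold (log2 -1.96 and -1.73) and Lcn2 0.485-fold (-0.91 and -1.18), a smaller difference than for calprotectin on both arrays. Ltf was at least 2.31-fold lower on its main probe and at least 1.52-fold lower on the second, and its 2 probes had the same direction. Csf3r was 0.718-fold, past the threshold in the mean and on 1 array only (log2 -0.36 and -0.60). Mpo was 0.853-fold (log2 0.04 and -0.50), within the thresholds. Camp was 0.509-fold, but it was not well above background in either pool, so this value ranks nothing.

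In all, 10 of the 11 probes were lower, against 8.18% of all probes, and 0 were higher, against 2.99%. On both arrays separately 9 were lower, against 3.75% of all probes. The median log2 ratio of the 11 probes was -1.84, against 0.00 over all probes. After normexp background correction and loess, which shrink the ratios of dim probes, 7 of the 11 were past the threshold, with S100a8 at -2.78, Mmp8 at -2.19 and Fpr1 at -1.15.

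**Figure D3:**
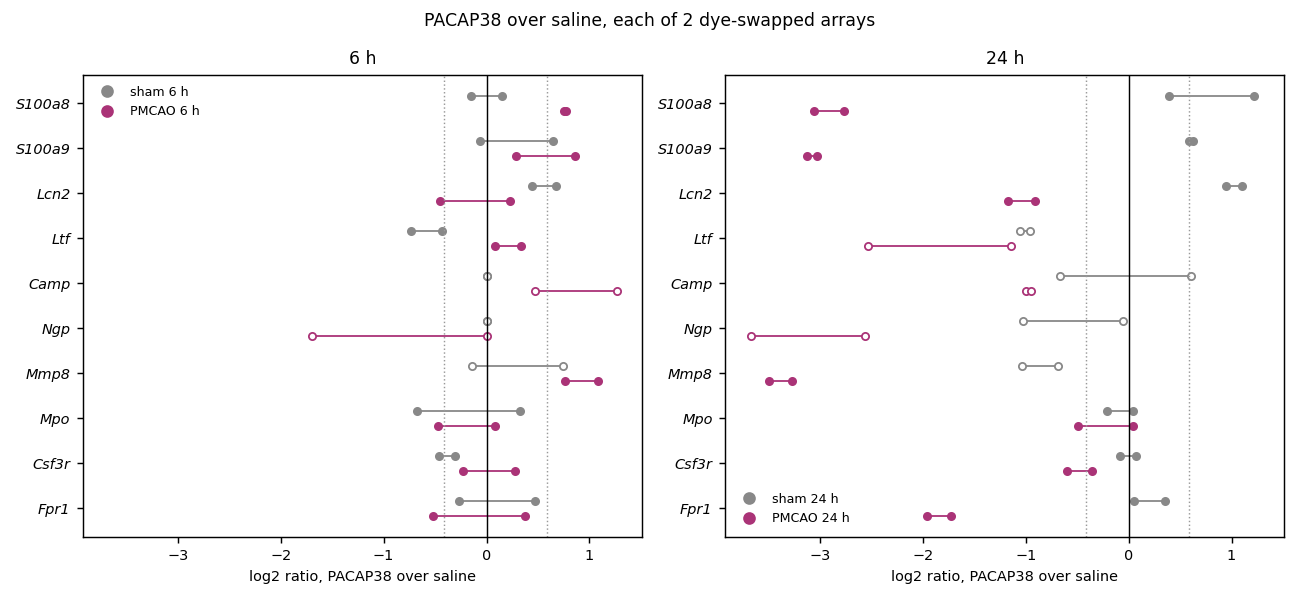
Log2 ratio of PACAP38 over saline for the main probe of each gene at 6 h (left) and 24 h (right), with sham in gray and PMCAO in purple. The 2 points joined by a line are the 2 dye-swapped arrays, open points mark a probe not well above background in 1 or both pools, and dotted lines mark 1.5-fold and 0.75-fold. In PMCAO at 24 h S100a8, S100a9 and Mmp8 lie between -3.49 and -2.77, whereas at 6 h S100a8 and Mmp8 lie between 0.76 and 1.08.

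In each of the other 3 pairs of pools fewer of the 11 probes were past a threshold. In PMCAO at 6 h, 3 probes were higher (5.41% of all probes) and 1 was lower (6.9%). S100a8 was 1.70-fold (log2 0.76 and 0.77) and Mmp8 1.90-fold (1.08 and 0.76), and these 2 were higher on both arrays, against 1.14% of all probes. S100a9 was 1.48-fold (0.28 and 0.86), just under the threshold, while Lcn2, Fpr1, Mpo and Csf3r had opposite signs on the 2 arrays. The third probe counted as higher was Camp and the one counted as lower was Ngp, neither well above background. After normexp and loess no member probe passed the threshold in this pair (S100a8 was nearest, at 0.58 on the log2 scale, just under it).

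In sham at 24 h 3 probes were higher, against 1.75% of all probes, and 4 were lower, against 3.87%. Lcn2 was 2.03-fold (log2 1.11 and 0.94), S100a8 1.75-fold (1.21 and 0.39) and S100a9 1.52-fold (0.63 and 0.59). Of the 4 lower probes 2 were those of Ltf, with the main probe at least 1.54-fold lower (log2 -1.06 and -0.96), the same direction as in PMCAO, and the others were Mmp8 and Ngp, which were not well above background in either sham pool. After normexp and loess none of the 11 passed the threshold here either. In sham at 6 h 0 probes were higher (3.98% of all probes) and 1 was lower (7.48%), the main probe of Ltf at 0.667-fold. Over all probes the 2 turned arrays of a pair correlated at -0.42 in sham at 24 h, -0.15 and -0.14 at 6 h and 0.05 in PMCAO at 24 h. A value below 0 means that ratios over all probes tended to follow the dye, and for this reason both arrays are given for each gene.

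Over the 4 pairs of pools, limma called 0 of 36121 probes for PACAP38 over saline and 0 for the difference between 24 h and 6 h at an adjusted p of 0.05. At an unadjusted p under 0.05 there were 1710 and 1882 probes, with 1 member probe in each: Mpo for PACAP38 over saline (mean log2 ratio -0.17 ± 0.03, SE) and the second probe of Ltf for 24 h minus 6 h (-1.31 ± 0.38). Mean log2 ratios over the 4 pairs were -0.34 ± 0.78 (SE) for S100a8, -0.40 ± 0.80 for S100a9, -0.76 ± 0.86 for Mmp8 and 0.11 ± 0.40 for Lcn2, all smaller than their error. The ratio at 24 h minus that at 6 h was -1.44 ± 1.61 for S100a8 and -2.73 ± 1.14 for Mmp8 (adjusted p = 0.888 and 0.872 in limma). These tests average sham and PMCAO pairs, whose ratios had opposite signs at 24 h for S100a8, S100a9 and Lcn2, and a contrast of PMCAO at 24 h with the other pairs rests on 1 pair.

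Other genes of neutrophils were read from a list of 40, of which 38 were on the array with 53 probes. In PMCAO at 24 h 39 of the 53 probes were lower with PACAP38, against 8.18% of all probes, 1 (of Olfm4, not well above background) was higher and the median log2 ratio was -0.96. Retnlg, a resistin-like protein of mature neutrophils, was 0.112-fold (log2 -3.16 and -3.17). Clec4d, a C-type lectin receptor of myeloid cells, was 0.194-fold, Stfa2l1, a stefin, was 0.203-fold, and 1 of the 2 probes of Trem1, a receptor that amplifies inflammatory signaling, was at least 4.08-fold lower. In PMCAO over sham at 24 h 43 of the 53 were higher with saline, against 9.56% of all probes, and 30 with PACAP38, against 6.39%. In the other pairs of PACAP38 over saline between 3 and 5 of the probes were lower, against 3.87% to 7.48% of all probes. Between 0 and 4 were higher, against 1.75% to 5.41%. At 6 h these counts lay near those over all probes. In sham at 24 h 5 of the 53 were lower, above the 3.87% of all probes, and 0 were higher, against 1.75%. Probes for Elane and Ctsg, 2 azurophil granule proteases made at the stage of Mpo, were not well above background in either PMCAO pool of 24 h.

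The list of ligands of these receptors and of neutrophil chemoattractants had 9 probes. It also holds Tlr4 and Ager, which are receptors of calprotectin and neither such ligands nor chemoattractants. In PMCAO at 24 h 4 of them were lower with PACAP38, against 8.18% of all probes. Higher were 2, against 2.99% of all probes (Ager and 1 of the 2 probes of Tlr4, neither well above background). Csf3, granulocyte colony-stimulating factor and the ligand of Csf3r, was 0.128-fold. Cxcl1, a chemokine that attracts neutrophils, was 0.136-fold, Cxcl2, of the same family, was at least 5.29-fold lower, and Cxcl7, a chemokine of platelets, was 0.119-fold. In PMCAO over sham at 24 h Csf3 was at least 12.0-fold higher with saline and at least 1.29-fold higher with PACAP38, and Cxcl1 at least 59.2-fold and at least 6.77-fold. Csf3 was not well above background in any sham pool.

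Markers of some other cells of the hemisphere were also lower to different degrees in PMCAO at 24 h. Over all probes 8.18% were lower with PACAP38 there and 2.99% were higher. Lower with PACAP38 were 8 of 14 probes of monocytes and macrophages (median log2 ratio -0.48), with Cd14 at 0.211-fold, Arg1 at 0.297-fold, Lgals3 at 0.471-fold and F10 at 0.541-fold. For endothelial cells 11 of 22 probes were lower (median -0.39), among them the adhesion molecules Selp (0.418-fold) and Icam1 (0.478-fold), with Cdh5 at 0.387-fold and Pecam1 at 0.647-fold. For astrocytes and reactive gliosis 9 of 24 were lower (median -0.18), with Timp1 at 0.309-fold, Cd44 at 0.544-fold, Gfap at 0.667-fold and Vim at 0.669-fold. For erythrocytes and platelets 2 of 12 were lower (median -0.33) and 0 were lower on both arrays. Itga2b was 0.657-fold, past the threshold on 1 array only (log2 -1.19 and -0.02). The hemoglobin genes Hba-a1 (0.755-fold) and Hbb-b1 (0.794-fold) and Gp9 (0.774-fold) stayed within the thresholds. Cxcl7, the chemokine of platelets at 0.119-fold, was counted with the chemoattractants and is not among these 12 probes.

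For microglia 0 of 15 probes were lower, against 8.18% of all probes, and the median was -0.06. Gpr34, at 1.66-fold, was the 1 higher probe, against 2.99% of all probes. P2ry12 was 1.37-fold, Siglech 1.14-fold and Trem2 0.868-fold. For neurons 0 of 20 were lower (median 0.07), with Camk2a at 1.28-fold, Syt1 at 1.24-fold, Nefl at 1.13-fold and Gad1 at 0.880-fold, and 19 of the 20 were well above background on both arrays, as a hemisphere should give. For lymphocytes 1 of 15 was lower (median 0.00), near the 8.18% of all probes. Only 1 of the 15, Cd79b at 0.895-fold, was well above background on both arrays. The mice of the PMCAO pools had a neurological grade of 1 or 2 by selection, and the extent of the lesion in each pool was not analysed here. The part of these other cells in the ratios of the granule genes was not tested.

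**Figure D4:**
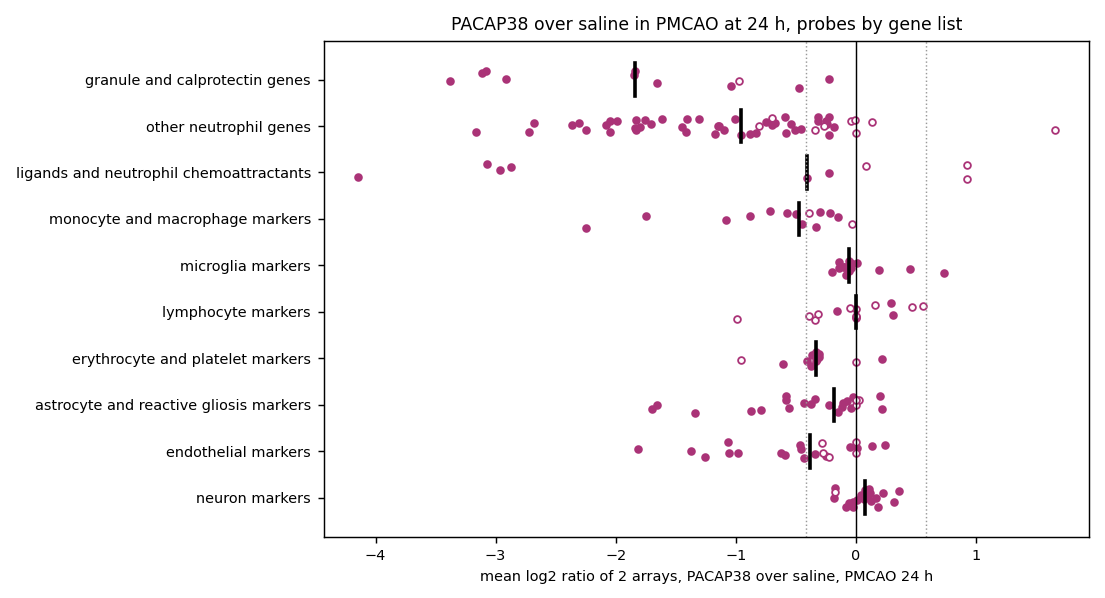
Mean log2 ratio of 2 arrays for PACAP38 over saline in PMCAO at 24 h, with 1 point per probe and 1 row per gene list. Open points are not well above background in either pool, black bars are medians over all probes of a list, and dotted lines mark 1.5-fold and 0.75-fold. The median is -1.84 for the granule and calprotectin genes, -0.96 for other neutrophil genes and 0.07 for neuron markers.

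Among the 10 genes the patterns over the 8 pools were not alike. Mmp8, S100a8, S100a9 and Fpr1 had their highest level in PMCAO plus saline at 24 h and a level in PMCAO plus PACAP38 at 24 h below that of both PMCAO pools at 6 h. Lcn2 was also highest in PMCAO plus saline at 24 h, but its level in PMCAO plus PACAP38 at 24 h (-1.27) lay near those of 6 h (-1.06 and -1.09), where levels are log2 relative to the 75th percentile. Mpo was highest in the 2 PMCAO pools of 6 h (-3.18 with saline and -3.30 with PACAP38) and lay at -5.14 and -5.39 in those of 24 h. Levels in sham plus saline were also lower at 24 h than at 6 h for S100a8 (-4.04 against -2.05) and S100a9 (-0.62 against 0.71). The same held for Lcn2 (-5.55 against -3.52), Fpr1 (-5.86 against -5.31) and Mpo (-5.53 against -4.75), while Mmp8 was at background in sham. Differences between the times were thus not particular to PMCAO, and they also cross the change of scanner. The levels of Csf3r spanned the least, from -3.44 to -2.53.

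The mean standardized level of the 10 main probes was highest in PMCAO plus saline at 24 h (1.39), followed by PMCAO plus PACAP38 (0.72) and PMCAO plus saline (0.37) at 6 h, and lay at -0.18 in PMCAO plus PACAP38 at 24 h and between -0.94 and -0.22 in the sham pools. Each probe weighs alike in this mean, so values at background enter it. Camp was well above background in no channel, Ngp only in PMCAO plus saline at 24 h, and Mmp8 in no sham pool. Of 21752 probes well above background in both dyes of the PMCAO plus saline pool of 24 h and outside all lists, those whose level followed this mean most closely over the 8 pools were Adm (adrenomedullin, a vasodilator peptide; Pearson r = 0.987), Adamts1 (an extracellular metalloproteinase; 0.980), P2ry2 (a receptor for extracellular nucleotides; 0.979), Thbs1 (thrombospondin 1; 0.976), Mgam (0.976) and 2310016C08Rik (0.975). These probes had to be well above background only in the pool where the mean is highest. In the 14 channels of the other 7 pools Adm, Adamts1, P2ry2 and 2310016C08Rik were well above background in all 14 and Thbs1 in 13, but Mgam in 1, so that its coefficient rests largely on values at background. These coefficients describe 8 pools that share arrays in pairs and were picked as the highest of all probes, so no p is given. The level of Adm was 0.82 in PMCAO plus saline at 24 h and -0.95 in PMCAO plus PACAP38, against -1.94 and -1.95 in the sham pools.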

How the data were processed

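Gene expression was measured on 8 two-color 60-mer arrays with 41174 probes. The authors deposited the output of Feature Extraction (version 9.5.1.1 in the headers of the 6 h files, 9.5.3.1 in those of 24 h). The deposited log10 ratio is that of Cy5 to Cy3, with background subtracted and with detrending and normalization of the dyes by the software, and the deposited intensity columns hold mean, background and processed signals. A second deposited table gives the processed ratio, with a minus sign (a score here) on arrays with PACAP38 in Cy3. The dye of each pool follows the sample titles, since the protocol text of the labels gives 1 orientation for all arrays. Flags mark outlier spots, left out here, and spots well above background.

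Ratios were turned to PACAP38 over saline, converted to log2 and averaged over spots of a probe and then over the 2 arrays. PMCAO over sham used log2 processed signals minus the 75th percentile of each channel. A gene not well above background in 1 group has a limit only ("at least"), from signals after loess and Aquantile, set against its own signal or the lowest signal well above background on each array, whichever was higher. Tests were made with limma 3.58.1 under R 4.3.3 (lmFit, eBayes with a variance trend, Benjamini-Hochberg over all probes), on probes with a value in all pools, and were tested on simulated data. Whether pools came from separate litters or days is not given in the sources used here. The precision is limited by the number of arrays and of pools.

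The 10 genes and the lists were chosen with earlier results of these data known. All member probes are named, as are, per list, the 4 genes with the largest ratio in PMCAO at 24 h among probes well above background, Csf3, and the 6 genes most alike in pattern. Elane, Ctsg, Olfm4, Ager and Tlr4 are named after their values were seen. Member probes matched RefSeq accessions in 11 of 11 cases. Promoters are from RefSeq (GRCm38.p6), with 1 window for each of the 10 genes. Alternatives were normexp (offset 50) with loess, the deposited table, each array or dye alone, outlier spots kept, other thresholds and median scaling. Others were dim probes left out, no random block, no trend and each pool or pair left out. A last one took each array as a sample, with the dye orientation as a covariate and the pair of pools as a random block. Python 3.11.15 was used with numpy 2.4.6, pandas 2.3.3 and, for the plots, matplotlib 3.10.9.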

Additional observations from a re-analysis of the deposited data

Results flagged for a closer look

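Of 22 sets of 4 pools (each of the 11 probes in sham and in PMCAO), 2 had a pool far from the other 3. The pools of a set differ by design in drug and time, so no rate by chance is given. One flag was the level of Ngp in PMCAO plus saline at 24 h (-3.91 on the log2 scale relative to the 75th percentile). It lay above the other PMCAO pools, where Ngp was not well above background. The other was that of the second probe of Ltf in PMCAO plus PACAP38 at 24 h (-7.05, below the others and not well above background).

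For 4 genes the ratio of PACAP38 over saline was past the threshold on both arrays in opposite directions in 2 pairs of pools. The log2 ratio in PMCAO at 24 h minus that at 6 h was -4.31 for Mmp8 and -3.68 for S100a8. The log2 ratio at 24 h in PMCAO minus that in sham was -3.69 for S100a9 and -2.07 for Lcn2. These differences were not tested, because each pair of pools is 1 replicate.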

How the results depend on the processing

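After normexp and loess the probes past the threshold for PACAP38 over saline numbered 0 of 11 in 3 pairs (sham 6 h, PMCAO 6 h, sham 24 h), where the counts given were 1, 4 and 7, and 7 against 10 in the PMCAO pair of 24 h. For PMCAO over sham, normexp, loess and Aquantile gave 4 (saline) and 4 (PACAP38) at 6 h and 6 and 3 at 24 h, against 9, 10, 10 and 6. With probes well above background only, 2 were counted for PMCAO 6 h and 4 for sham 24 h, and 2 for PMCAO 6 h when both arrays had to pass. With 1.5-fold either way 0 were counted in sham at 6 h. Leaving out 1 array gave 3 to 4 (sham 6 h), 5 (PMCAO 6 h), 6 to 8 (sham 24 h) and 9 to 11 (PMCAO 24 h) for PACAP38 over saline, and 7 to 8, 9, 7 to 9 and 6 to 7 for PMCAO over sham (saline 6 h, saline 24 h, PACAP38 6 h, PACAP38 24 h). In PMCAO over sham with saline at 6 h 1 dye turned the sign for the second probe of Ltf (log2 -0.00061 without array 2 and 1.86 without array 1) and for Ngp (-0.27 without array 1 and 1.77 without array 2). The deposited table of ratios and the outlier spots, when kept, changed no count.

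Over the 8 pools limma called 15 probes in either direction, 618 without the random block, 1 after normexp, loess and Aquantile, 0 with median scaling, 0 with no variance trend, 50 among probes well above background, 55 in the saline pools alone, 0 in the PACAP38 pools alone, and 0 to 694 with 1 pool left out. Member probes called were 0, with 4 without the random block (Mmp8, S100a8, Fpr1 and Lcn2), 1 among probes well above background (Lcn2), 4 in the saline pools alone (Mmp8, S100a8, S100a9 and Lcn2) and 0 to 5 with 1 pool left out. The cause of these differences was not tested. For PACAP38 over 4 pairs of pools, and for 24 h minus 6 h, 0 probes were called under every alternative run, pairs left out included (0 to 0). With each array as a sample, the dye orientation as a covariate and the pair of pools as a random block, the calls were 0 and 0. The replicate number of an array, which is also its dye orientation, does not pair animals, since it marks the 2 labelings of the same RNA.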
